A study of Mus musculus with 3 samples.

Results

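The E2F family was examined in the ChIP-seq data of the embryonic mouse cortex. Its 8 genes, E2f1 to E2f8, were taken by name from the GENCODE M21 annotation, which holds 55450 genes, of which 21951 are protein-coding. For each gene, NF-Y-ChIP and H3K4me3-ChIP peaks inside the gene or within 5 kb upstream were collected, which is how the study defined targets. The series consisted of 3 libraries from cerebral cortices at E13.5: chromatin without an antibody (input), NF-Y-ChIP with an antibody against the NF-YC subunit, and H3K4me3-ChIP. All 3 were of the same tissue and stage, with 1 library each. The labels name no strain, genotype or treatment, and do not say how many embryos were pooled. No peaks were listed for the input, so the values described are those of the peak lists of the antibodies, with 733 peaks for NF-Y-ChIP and 18816 peaks for H3K4me3-ChIP. All ranks and shares refer to the lists as used here, which may not hold every peak that was called.

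E2F proteins are transcription factors that control entry into S phase and the genes of DNA replication. E2F1, E2F2 and E2F3 are known as activators, which are held in check by the retinoblastoma protein until the cell commits to division. E2F4 and E2F5 act mainly as repressors together with the related pocket proteins p107 and p130, E2F6 represses without pocket proteins in a Polycomb-type complex, and E2F7 and E2F8 are atypical repressors that bind DNA without a DP partner and limit the output of the activators. NF-Y is a trimer of NF-YA, NF-YB and NF-YC that binds the CCAAT box of proximal promoters, and H3K4me3 is a histone mark of active promoters. Each library has no replicate, so no error between samples and no test can be given, and the values below describe these lists. The read depth of the libraries is unknown, so a gene without a peak is one at which no peak was detectable at this depth.

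NF-Y-ChIP peaks were found at 2 of the 8 E2f genes, E2f1 among the 3 activators and E2f8 among the 5 repressors. By the same rule, 810 of all 21951 protein-coding genes had an NF-Y-ChIP peak (3.69%, Wilson 95% confidence interval 3.45 to 3.95%). Of the 14352 protein-coding genes that were H3K4me3-ChIP targets, 803 also had an NF-Y-ChIP peak (5.6%, interval 5.23 to 5.98%). With 3 activators and 5 repressors, 1 target in each does not separate these subgroups. H3K4me3-ChIP peaks were present at 8 of 8 E2f genes, where the share over all protein-coding genes was 65.4%.

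The sequence at the NF-Y-ChIP peak of E2f1 is shown beside 2 further E2f promoters that hold CCAAT boxes but no NF-Y-ChIP peak. They were read from GRCm38 (mm10) on the strand of the gene, from 5′ to 3′, without annotated exons. Capitals mark the CCAAT box, which reads ATTGG where it lies on the opposite strand.
E2f1, NF-Y-ChIP peak upstream of the first exon, chr2:154569893-154570058, minus strand: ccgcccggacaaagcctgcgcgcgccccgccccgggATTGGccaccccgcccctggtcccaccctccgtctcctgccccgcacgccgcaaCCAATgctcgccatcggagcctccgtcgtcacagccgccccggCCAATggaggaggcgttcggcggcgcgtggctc
E2f3, no NF-Y-ChIP peak, 200 bp upstream of the transcript E2f3-201, chr13:29986064-29986263, minus strand: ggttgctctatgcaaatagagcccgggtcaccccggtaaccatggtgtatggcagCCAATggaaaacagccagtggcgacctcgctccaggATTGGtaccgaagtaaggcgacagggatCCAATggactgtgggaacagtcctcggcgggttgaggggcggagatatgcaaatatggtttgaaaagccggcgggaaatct
E2f7, no NF-Y-ChIP peak, 171 bp upstream of the first annotated exon, chr10:110745268-110745438, plus strand: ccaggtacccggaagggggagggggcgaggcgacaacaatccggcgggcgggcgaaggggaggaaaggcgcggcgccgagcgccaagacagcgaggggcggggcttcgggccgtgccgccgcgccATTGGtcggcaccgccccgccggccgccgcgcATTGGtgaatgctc

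E2f1 (ENSMUSG00000027490.17, chr2:154559407-154569892, minus strand) encodes the activator best known for driving S-phase genes. Its NF-Y-ChIP peak lay at chr2:154569854-154570058 and was 205 bp wide, close to the median of 224 bp over all NF-Y-ChIP peaks. The summit, at position 154569954, preceded by 62 bp the transcription start site (TSS) of E2f1-202, which is also the 5′ end of the gene. The peak reached from −166 bp to 38 bp around this TSS, and so covered the proximal promoter and the beginning of the first exon. The fold enrichment at the summit, which MACS2 gives over the local background, was 6.43. This placed the peak at rank 403 of 733, with 44.6% of the NF-Y-ChIP peaks weaker, and just under the median of 6.75 (quartiles 5.32 and 8.64). Its −log10 p-value was 11.6 and its −log10 q-value was 6.84, beside medians of 11.4 and 6.64 over all NF-Y-ChIP peaks. By every measure of strength, then, the E2f1 peak was a middling one of its list.

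The E2f1 peak held 3 CCAAT boxes, which are the 3 in the printed sequence. Their centres lay at −128, −74 and −31 bp from the TSS. The distal box is in the ATTGG orientation and the other 2 are in the CCAAT orientation. The spacing between neighbouring centres was 54 bp for the distal pair and 43 bp for the proximal pair. The middle box, 12 bp from the summit, was the closest to it, and 2 of the 3 were within 50 bp of the summit. The proximal box alone matched the longer NF-Y consensus, which asks for 2 purines before CCAAT and for a C or G and then a purine after it. Of all 733 NF-Y-ChIP peaks, 239 held 3 or more CCAAT boxes (32.6%), 252 held 2 (34.4%), 194 held 1 (26.5%) and 48 held none (6.55%). The whole E2f1 peak was inside an H3K4me3-ChIP peak, whose summit was 450 bp farther downstream. No other gene had this NF-Y-ChIP peak within its body or its upstream 5 kb.

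E2f8 (ENSMUSG00000046179.17, chr7:48866429-48881596, minus strand) encodes one of the atypical repressors. Its NF-Y-ChIP peak was 171 bp wide. The fold enrichment was 5.15, which is rank 578 of 733, with 21.1% of the NF-Y-ChIP peaks weaker and below the lower quartile of 5.32. The −log10 p-value was 7.86 and the −log10 q-value 3.34, both lower than those of the E2f1 peak. The position of this peak depends on which transcript is considered. The summit was 104 bp upstream relative to E2f8-201, whose TSS is at position 48881041, but 451 bp downstream of the TSS of E2f8-202, the best supported transcript, which starts at the 5′ end of the gene. It therefore lay in an intron of the longer E2f8-202. Both transcripts are annotated with the same coding sequence.

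In the E2f8 peak, 2 CCAAT boxes faced each other, at −112 bp (CCAAT) and −83 bp (ATTGG) from the TSS of E2f8-201. Their centres were 29 bp apart and lay at −8 and 21 bp from the summit, so that the summit fell between them. Both matched the longer consensus. Among the 491 NF-Y-ChIP peaks with at least 2 CCAAT boxes, the closest spacing had a median of 32 bp (quartiles 26 and 43), and 243 of them (49.5%) had one of 25 to 40 bp. Among 1363 marked promoters with at least 2 boxes and no NF-Y-ChIP peak, the median was 41 bp (quartiles 29 and 75). Of these, 405 (29.7%) had a spacing of 25 to 40 bp. The spacing in E2f8 was within 25 to 40 bp, and the shortest in E2f1, 43 bp, was at the upper quartile of the NF-Y-ChIP peaks. Beside the promoters without a peak, E2f8 was at the lower quartile and E2f1 between the quartiles. The E2f8 peak was also wholly inside an H3K4me3-ChIP peak, with the H3K4me3 summit at −331 bp from the NF-Y-ChIP summit, upstream with respect to E2f8.

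The same peak also counted for Gm2788 (ENSMUSG00000085995.2), a non-coding gene on the opposite strand at chr7:48877958-48913040. One of its TSSs, at position 48881300, lay 259 bp from that of E2f8-201, and the NF-Y-ChIP summit lay between them, at −104 bp from the E2f8 TSS and −155 bp from the Gm2788 TSS. The peak list alone cannot assign the peak to one of the pair.

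**Figure D1:**
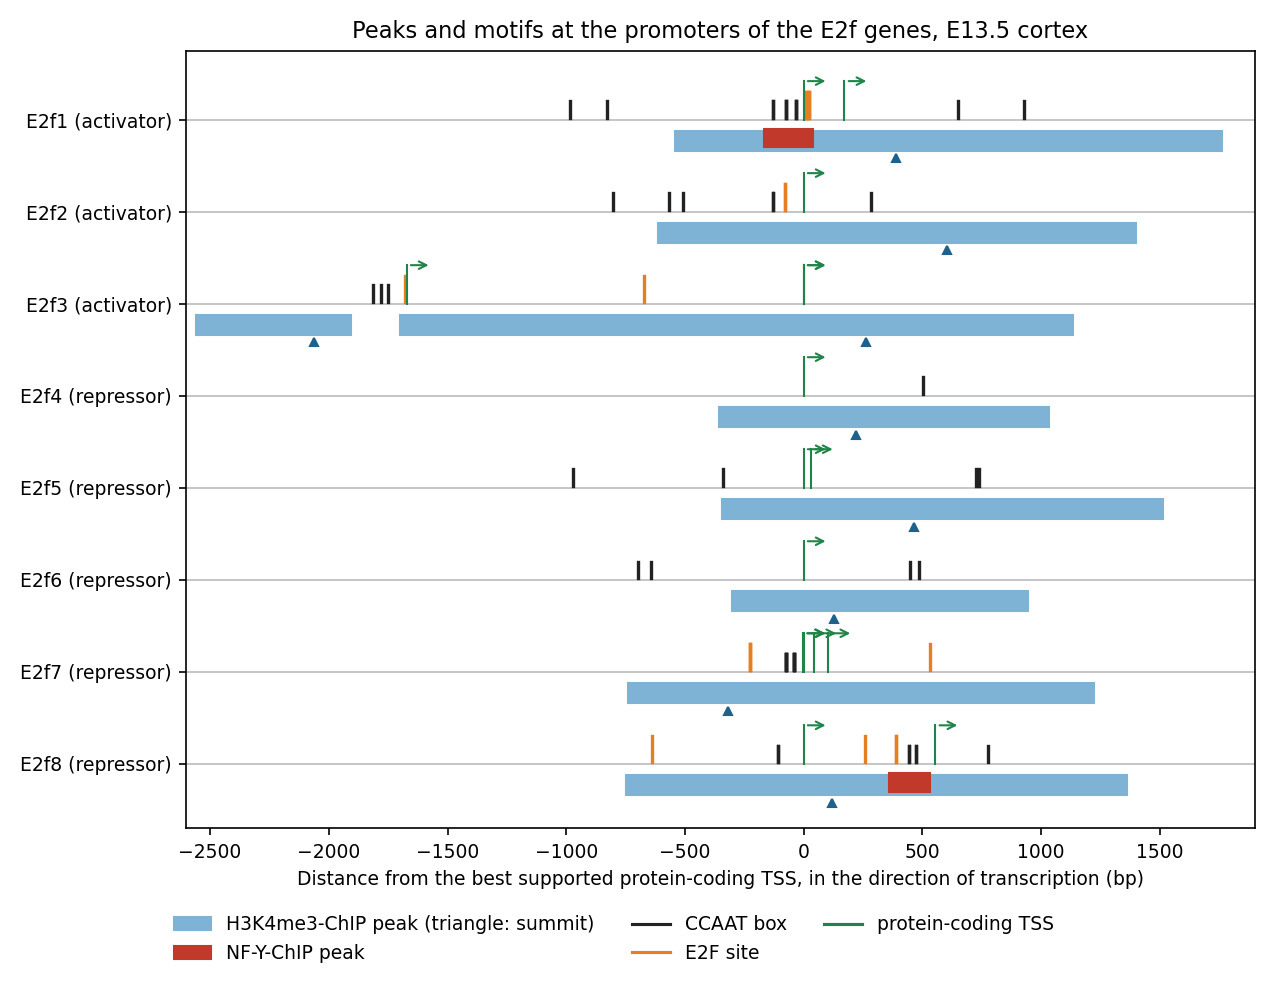
Peaks and motifs around the best supported protein-coding TSS of each E2f gene, with distance in bp along the direction of transcription and 1 gene per row. Blue bars are H3K4me3-ChIP peaks with their summits as triangles, red bars are NF-Y-ChIP peaks, and green arrows are the protein-coding TSSs. Black and orange ticks are CCAAT boxes and E2F sites, drawn within 1 kb of the best supported TSS and within 250 bp before to 50 bp after the others. NF-Y-ChIP peaks appear at E2f1, over its TSS, and at E2f8, upstream of its downstream TSS. The second TSS and the second peak of E2f2, beyond 7753 bp, are outside the map.

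At the other 6 E2f genes no NF-Y-ChIP peak was detectable at this depth, and the nearest one was 138 kb or more from the TSS. These distances were not compared with those of other genes without a peak. The closest was 138 kb downstream of the TSS of E2f2, at the promoter of Hnrnpr (5.25-fold). For E2f4 it was 706 kb upstream of the TSS, at Pdp2 (4.88-fold). For E2f3, E2f5, E2f6 and E2f7 the nearest NF-Y-ChIP summit was between 1568 and 10234 kb from the TSS. Extending the upstream limit to 50 kb added none of the 6.

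The CCAAT boxes of these promoters were then compared with those of E2f1 and E2f8. In the window from 250 bp before to 50 bp after the best supported protein-coding TSS, searched for CCAAT and ATTGG, 4 of the 8 E2f genes had at least 1 box (50%, Wilson 95% confidence interval 21.5 to 78.5%). Over all 21951 protein-coding genes the share was 38.6%, and over the 12413 promoters whose window overlapped an H3K4me3-ChIP peak it was 37.8%. Of the 547 promoters whose window overlapped an NF-Y-ChIP peak, 94.7% had a box. E2f1 had 3 boxes, E2f7 had 2, and E2f2 and E2f8 had 1 each. E2f3, E2f4, E2f5 and E2f6 had 0. At these TSSs, activators with a box were 2 of 3 and repressors were 2 of 5, which does not set the subgroups apart. With every protein-coding TSS counted, E2f3 gained boxes at an upstream TSS. All 3 activators then had a box, and of the repressors only E2f7 and E2f8. A difference between the subgroups was not tested.

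E2f7 (ENSMUSG00000020185.16, chr10:110745439-110787384, plus strand), the other atypical repressor, had its boxes at −73 and −41 bp, both in the ATTGG orientation and 32 bp apart, the same as the median spacing of the NF-Y-ChIP peaks. A spacing of 32 bp also lay between the quartiles, 29 and 75 bp, of marked promoters with at least 2 boxes and no NF-Y-ChIP peak. The distal box of E2f7 matched the longer consensus. E2f2 (ENSMUSG00000018983.9, chr4:136172394-136196057, plus strand), an activator that acts alongside E2f1, had its box at −131 bp, and it too matched the longer consensus. So E2f7 carried a pair of boxes spaced much like that of E2f8 but had no NF-Y-ChIP peak.

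E2f3 (ENSMUSG00000016477.18, chr13:29906575-29986063, minus strand) has a TSS for the transcripts E2f3-203 and E2f3-204 at position 29984391, whose window held no box, and an upstream TSS for E2f3-201, at position 29986063. In the window of the latter there were 3 CCAAT boxes, at −143, −107 and −79 bp, spaced by 36 and 28 bp, of which the most distal matched the longer consensus. This is the same number as in E2f1 with closer spacing, and no NF-Y-ChIP peak was called there. The 3 boxes lay in a stretch of 205 bp, chr13:29986093-29986297, which separates the 2 H3K4me3-ChIP peaks of E2f3. The larger of these peaks ended 29 bp upstream of the TSS of E2f3-201. When every annotated TSS of a gene was taken, CCAAT was found at 7 of 8 E2f genes, all but E2f5, compared with 66.0% of the 14352 marked genes. This count includes TSSs of transcripts that are not protein-coding. For E2f4 and E2f6 the boxes lay at such TSSs only, and the windows of their protein-coding TSSs held 0 boxes. Marked genes had a median of 4 TSSs and the E2f genes a median of 3.

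Among the H3K4me3-marked promoters, the share with an NF-Y-ChIP peak went up with the number of CCAAT boxes in the window. It was 0.376% of 7720 promoters with 0 boxes (interval 0.262 to 0.539%), which is the class of E2f3, E2f4, E2f5 and E2f6 at their best supported TSSs. It was 4.25% of 2940 promoters with 1 box (interval 3.58 to 5.04%), the class of E2f2 and E2f8. With 2 boxes, as in E2f7, it was 15.8% of 1126 (interval 13.8 to 18.1%). With 3 or more, as in E2f1, it was 33.8% of 627 (interval 30.2 to 37.6%). E2f1 was thus in the class with the highest share, while most promoters even of that class had no NF-Y-ChIP peak. In the E2f8 window counted here, that of E2f8-202, there was 1 box at −110 bp in the ATTGG orientation, outside the NF-Y-ChIP peak, whereas the window of E2f8-201 held the 2 boxes of the peak.

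**Figure D2:**
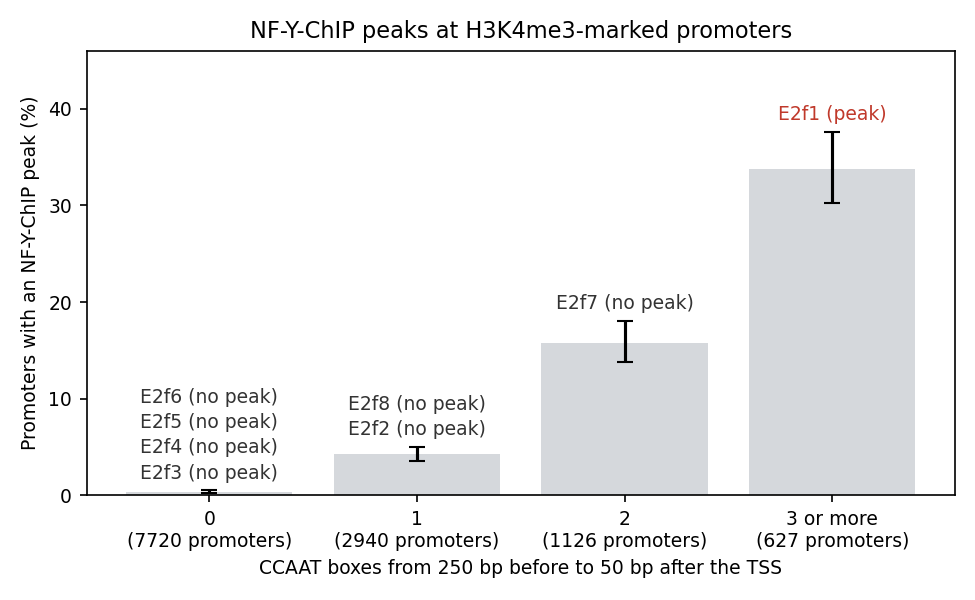
Share of H3K4me3-marked protein-coding promoters whose window overlapped an NF-Y-ChIP peak, in percent, by the number of CCAAT boxes in the window. Bars are shares with Wilson 95% confidence intervals, which cover counting error only, and the E2f genes are written over the class of their best supported TSS. The share went from 0.376% with 0 boxes to 33.8% with 3 or more. E2f8 is marked as without a peak because its NF-Y-ChIP peak lies outside this window.

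NF-Y-ChIP peaks with more CCAAT boxes had a higher median fold enrichment, with overlapping ranges between the quartiles. It was lowest, 5.33-fold, in peaks without a box (quartiles 4.13 and 6.78). Peaks with 3 or more boxes, such as that of E2f1, had a median of 7.30-fold (quartiles 5.56 and 9.19). Those with 2, such as that of E2f8, had a median of 6.84-fold (quartiles 5.55 and 9.33), and those with 1 had 6.41-fold. Both E2f peaks were below the median of their class, and that of E2f8 was below its lower quartile. The protein-coding genes nearest to E2f1 in both NF-Y-ChIP and H3K4me3-ChIP fold enrichment, by distance on the log2 scale among 692 genes, were Efcab14 (0.05), Pnrc2 (0.05) and Yaf2 (0.06). Those nearest to E2f8 were Fam192a and Rspry1, which share their peaks (0.06), and Gpr139 (0.07).

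All 8 E2f genes had an H3K4me3-ChIP peak over the promoter window of their best supported TSS, compared with 12413 of all 21951 protein-coding genes (56.5%). Among the activators, E2f3 had the highest fold enrichment at 61.2 (rank 1631 of 18816), followed by E2f1 at 42.6 (rank 5542) and E2f2 at 40.2 (rank 6162). Of the repressors that bind pocket proteins, E2f4 had 70.1-fold (rank 626), the highest of the family, and E2f5 had 66.8-fold (rank 961). E2f6 had 43.5-fold (rank 5270). The atypical repressors were apart, E2f7 at 61.0-fold (rank 1665) and E2f8 at 30.1-fold (rank 8695), the lowest of the family. The median over the 14352 marked protein-coding genes was 40.1-fold, and over the 803 of these with an NF-Y-ChIP peak it was 47.2-fold. E2f4 exceeded 94.6% of the marked genes and E2f5 91.8%, whereas E2f8 exceeded 32.7%. The median was 42.6-fold for the 3 activators (40.2 to 61.2) and 61.0-fold for the 5 repressors (30.1 to 70.1), and the range of the repressors enclosed that of the activators. Since no replicate gives the spread of a fold enrichment, it cannot be said which neighbours in this order differ. The NF-Y-ChIP targets, E2f1 and E2f8, were both under the median of the 8 E2f genes, 52.3-fold.

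**Figure D3:**
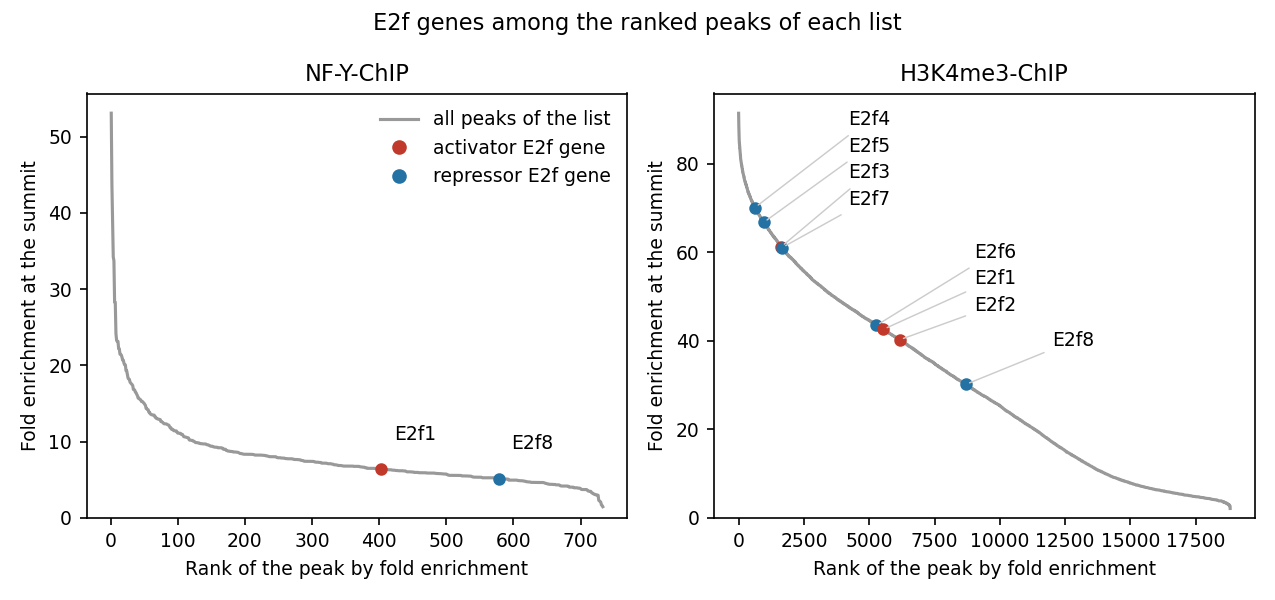
Fold enrichment at the summit against the rank of the peak, for NF-Y-ChIP (left, 733 peaks) and H3K4me3-ChIP (right, 18816 peaks). Grey lines are all peaks of the list, and points are the strongest peak of each E2f gene, red for activators and blue for repressors. The E2f1 and E2f8 peaks sit in the flat lower part of the NF-Y-ChIP curve, at 6.43-fold and 5.15-fold, while the H3K4me3-ChIP peaks spread from 70.1-fold at E2f4 to 30.1-fold at E2f8.

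The width of the H3K4me3-ChIP peaks ordered the genes differently. The activators had peaks of 2835 bp (E2f3), 2304 bp (E2f1) and 2014 bp (E2f2). The repressors had peaks of 2109 bp (E2f8), 1961 bp (E2f7), 1856 bp (E2f5), 1392 bp (E2f4) and 1246 bp (E2f6). Thus E2f8, with the lowest enrichment, had the broadest peak of the repressors. It was wider than the widest peak of 82.7% of the marked genes. E2f4, with the highest enrichment, had a peak of ordinary width, wider than the widest peak of 47.9% of the marked genes. The median was 2304 bp for the activators and 1856 bp for the repressors, with 1 repressor, E2f8, above the lowest activator. The width of the strongest peak of each gene had a median of 1397 bp for all marked genes and 1655 bp for those with an NF-Y-ChIP peak. E2f4 and E2f6 were below the former, and the other 6 E2f genes were above both.

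The strongest H3K4me3-ChIP peaks lay at chr2:154568132-154570435 (E2f1), chr4:136171781-136173794 (E2f2), chr13:29983258-29986092 (E2f3), chr8:105297306-105298697 (E2f4), chr3:14578299-14580154 (E2f5), chr12:16810676-16811921 (E2f6), chr10:110744730-110746690 (E2f7) and chr7:48880235-48882343 (E2f8). In 7 of the 8 the summit was downstream of the best supported TSS, by 120 bp in E2f8 to 604 bp in E2f2. In E2f7 it was upstream, at −318 bp. E2f2 and E2f3 had a second, weaker peak, in both cases upstream of another TSS of the gene and without reaching it. That of E2f2, 406 bp wide at chr4:136180147-136180552 (7.63-fold, rank 15106), had its summit at −330 bp from the TSS of E2f2-202. That of E2f3, 654 bp wide at chr13:29986298-29986951 (9.61-fold, rank 14171), had its summit at −389 bp from the TSS of E2f3-201. Of all marked genes, 73.8% had 1 peak, 19.0% had 2 and 7.19% had more. The peak of E2f4 also fell within the upstream 5 kb of Exoc3l, a gene on the opposite strand whose TSS is at −1562 bp from that of E2f4, so it is not exclusive to E2f4. The E2f4 peak began at −357 bp and so did not reach the TSS of Exoc3l, whereas that of E2f8 covered a TSS of Gm2788.

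Other promoter motifs were searched on both strands of the same windows. E2F sites were taken as TTTCCCGC, TTTCGCGC, TTTGCCGC or TTTGGCGC, which are the sequences that E2F proteins themselves bind. They were present at 3 of the 8 E2f promoters (37.5%, interval 13.7 to 69.4%), compared with 2.84% of all protein-coding promoters, 4.38% of those with H3K4me3-ChIP peaks and 7.13% of those with NF-Y-ChIP peaks. E2f1 had 2, at 8 and 21 bp downstream of the TSS, E2f2 had 1 at −78 bp and E2f7 had 1 at −224 bp. With every TSS counted, E2f3 (at −7 bp from the TSS of E2f3-201) and E2f8 (at −166 bp from that of E2f8-201) also had one, making 5 of 8, compared with 7.50% of marked genes. These 5 included all 3 activators and both atypical repressors, and E2f4, E2f5 and E2f6 were without. Both E2f1 sites and the E2f8 site at −166 bp were inside the NF-Y-ChIP peak of their gene, while 2 further E2f8 sites within 1 kb of the best supported TSS were outside it. A match is a stretch of letters in the reference and does not show that the site is used.

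The CHR element of cell cycle genes, taken as TTTGAA or TTCGAA, was present at 1 of the 8 promoters, that of E2f8 (−17 bp from the TSS of E2f8-202), compared with 12.0% of marked promoters and 17.4% of all. In the windows of the other protein-coding TSSs of the E2f genes, 1 more was found, at −20 bp from the TSS of E2f3-201, and matches farther from a TSS are not counted here. GGGCGG, the GC box, was present at 5 of 8, compared with 69.1% of marked promoters and 44.9% of all. E2f1 had 6 GC boxes, E2f3 and E2f7 had 3 each, and E2f5 and E2f8 had 1 each. The longer CCAAT consensus was present at E2f1, E2f2 and E2f7, compared with 15.5% of marked promoters and 75.0% of those with an NF-Y-ChIP peak. The G+C content of the windows was lowest in E2f2 (47.7%) and E2f4 (57%) and highest in E2f3 (78.7%), around a median of 62% for marked promoters. The ratio of observed to expected CpG was between 0.797 (E2f3) and 1.10 (E2f7), with all 8 above the median of 0.782 for marked promoters.

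Promoter sequences in the RefSeq table for GRCm38 were available for 6 of the 8 genes, with 8 entries, and none for E2f4 and E2f5. The RefSeq start of E2f1 lay 466 bp downstream of the GENCODE TSS, so its window held neither a CCAAT box nor the NF-Y-ChIP peak. The second RefSeq start of E2f2, at 8388 bp downstream, had 3 CCAAT boxes and no NF-Y-ChIP peak. For E2f8, RefSeq gives the start of E2f8-202 only.

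The partners, regulators and targets of the E2F proteins were described in the same way, from 4 lists with 31 genes in all. None of the 2 genes of DP proteins, which form dimers with the E2F proteins (Tfdp1 and Tfdp2), the 3 pocket protein genes (Rb1, Rbl1 and Rbl2) and the 4 genes of the E2F6 complex (Pcgf6, Mga, Max and L3mbtl2) had an NF-Y-ChIP peak. Of 22 genes of replication and the cell cycle that are known E2F targets, 2 had one (9.09%, interval 2.53 to 27.8%), so that 2 of all 31 had one (6.45%, interval 1.79 to 20.7%). Both encode subunits of the MCM helicase that unwinds DNA at replication origins. Mcm5 had a peak at chr8:75109314-75109541 (9.69-fold, rank 138) with its summit at −118 bp from the TSS. Mcm3 had a peak at chr1:20820216-20820507 (5.56-fold, rank 511) with its summit at −45 bp. Each had 2 CCAAT boxes within 50 bp of the summit, as did E2f1 and E2f8. The Mcm5 peak was stronger than those of both E2f genes, and the Mcm3 peak was between them. The shares of NF-Y-ChIP targets in the lists overlap that of all H3K4me3-marked genes, 5.6%, within their intervals.

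H3K4me3-ChIP peaks were present at all 31 genes of these lists, compared with 65.4% of all protein-coding genes. Their median was 47.5-fold, compared with 52.3-fold for the 8 E2f genes and 40.1-fold for all marked genes. Tfdp1 had 55.9-fold and Tfdp2 59.4-fold. Rb1 had 72.0-fold, slightly over E2f4, and Rbl1 and Rbl2 had 43.9-fold and 56.4-fold. The lowest was Mga at 13.1-fold. The tissue was checked with marker genes, by the rule that called 65.4% of all protein-coding genes. H3K4me3-ChIP peaks were present at 8 of 8 genes of cortical progenitors and neurons (the lowest 4.61-fold, at Neurod6), at 2 of 5 genes of blood and vessels (Ptprc, 5.60-fold, and Cldn5, 9.38-fold) and at 1 of 6 genes of other tissues (Ins2, 7.83-fold). None of these marker genes had an NF-Y-ChIP peak. Several cell types make up the cortex, and which of them contributed the peaks at the E2f genes was not tested.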

How the data were processed

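ChIP-seq libraries were made from E13.5 mouse cortices. The authors checked reads with FastQC, trimmed them with Trimmomatic, aligned them to mm10 (GRCm38) with Bowtie2 (2.2.8 in the submitters' processing notes), converted them with Samtools and called peaks with MACS2 (2.1.2) at p below 0.001 for NF-Y-ChIP and q below 0.05 for H3K4me3-ChIP. The study names the input as its negative control, and whether MACS2 was given this input is not stated in the sources used here. The deposited fold enrichment is a ratio of the summit over local background. The deposited −log10 values are those of the p-value and q-value of each peak. In one list all 733 deposited score values follow the p-value, in the other all 18816 follow the q-value, and this and the thresholds identified the antibody of each list. The values were used as deposited.

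TSSs, exons and gene ranges were those of GENCODE M21. The best supported TSS was that of the best supported protein-coding transcript. Overlap was counted from 1 bp, and distances are negative upstream. Wilson 95% intervals cover counting error only. Because each group has 1 library, no test was run, and the alternatives are given in the closing section. Named genes were the 8 members, genes sharing their NF-Y-ChIP peaks or with the nearest other TSS, targets in the 4 lists, and for each of E2f1 and E2f8 the 3 protein-coding genes nearest in log2 fold enrichment of both antibodies. The genes at distant NF-Y-ChIP peaks (Hnrnpr and Pdp2) and the list genes named for H3K4me3 were chosen after their values were seen. The members, lists and comparisons were chosen with earlier results of these data known. Overlaps, distances and motif searches were first tested on simulated data. The software was pysam 0.24.0, pandas 2.3.3, matplotlib 3.10.9, SciPy 1.17.1 and NumPy 2.4.6 under Python 3.11.15. Some sequences and values are not reported here.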

Additional observations from a re-analysis of the deposited data

How the results depend on the processing

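The NF-Y-ChIP count of 2 of 8 E2f genes and the H3K4me3-ChIP count of 8 of 8 were the same with upstream limits of 1, 2, 10 and 50 kb, with summits within 1 kb of a TSS and with stricter peaks. The 2 of 31 genes of the partner and target lists were the same with limits of 1 and 50 kb, with summits within 1 kb of a TSS and with q below 0.05. The highest H3K4me3-ChIP fold enrichment of each E2f gene was recomputed only for summits within 1 kb of a TSS, and was the same. Of 63 alternative values, 46 stayed within the limits set for them. The E2f8 summit changed sides, from −104 bp at the nearest TSS to 451 bp from the TSS of the best supported transcript and from the 5′ end of the gene. The number of E2f genes with CCAAT changed from 4 to 7 with 1 kb to both sides of the TSS and to 7 with any TSS, protein-coding or not. That with an E2F site changed from 3 to 5 with any TSS, an alternative chosen after seeing the data. The CCAAT boxes near the E2f1 summit changed from 2 to 1 within 25 bp and to 1 with the longer consensus. The background share of NF-Y-ChIP targets, 3.69%, was 6.61% with 50 kb upstream, 3.17% with summits within 1 kb of a TSS, 1.88% over all annotated genes and 5.60% over genes with an H3K4me3-ChIP peak. The share of promoters with an NF-Y-ChIP peak at 1, 2 and 3 or more boxes was 5.62, 19.2 and 39.2% in the 200 bp before the TSS, and 2.58, 8.76 and 23.8% from 500 bp before to 100 bp after it.

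No paired analysis was possible because each group has 1 library. The depth of the libraries is unknown, and its part in the number of E2f genes with an NF-Y-ChIP peak was not tested. A q-value of at least 0.05 was given to 37 of the NF-Y-ChIP peaks, and neither that of E2f1 nor that of E2f8 was among these.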
